A study of Mus musculus with 5 samples.

Results

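The 10 genes described here encode the main proteins of the elastic fibre: elastin (Eln), the fibrillins Fbn1 and Fbn2, the fibulins Fbln1, Fbln2 and Fbln5, the microfibril-associated proteins Mfap2, Mfap4 and Mfap5, and the cross-linking enzyme lysyl oxidase (Lox). They were chosen by symbol, and all 10 are among the 18044 genes of the deposited table. The series holds 5 RNA-seq libraries from wild-type C57BL/6 mouse embryos at E18.5, late in gestation. Pelvis-kidney junctions, where the renal pelvis joins the kidney, were taken from all embryos, pooled and dispersed with collagenase, and the cells were stained for HCN3, a hyperpolarization-activated cation channel, and sorted. Of the libraries, 2 are labelled HCN3+ (HCN3-positive 1 and 2 below), and 3 are labelled HCN3- (HCN3-negative 1, 2 and 3). No transgene, drug or mutation is named in the labels, and both groups come from the same kind of pooled junction. The labels do not state whether each replicate was its own pool, so a p-value measures only how far these samples spread, and that spread may be technical.

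Elastic fibres give stretchable tissues their recoil. Fibroblasts and smooth muscle cells secrete fibrillins, which assemble into microfibrils, and tropoelastin, the soluble product of Eln, is laid down on that scaffold with the help of fibulins and is then made insoluble by lysyl oxidases. The wall of the renal pelvis and ureter stretches with each peristaltic wave and holds both of these cell types.

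The libraries held 24588864 to 39034478 reads assigned to genes. Values are normalized counts, the authors' reads divided by a size factor for each library. The libraries did not divide by their labels. For Hcn3 itself the count was 0 reads in HCN3-positive 1, followed by a normalized count of 44.5 in HCN3-positive 2, and 103, 32.2 and 41.9 in HCN3-negative 1, 2 and 3. The transcript of the sorted protein thus did not follow the labels: its highest library was labelled HCN3-negative, and a library labelled HCN3-positive had no read of it. Hcn2 and Hcn4 had 0 reads in HCN3-positive 1 as well, and normalized counts of at most 28.2 and 122 elsewhere. The authors' table is named as a comparison of HCN3- with HCN3+, but the groups behind its means are not those of the sample titles. In 18044 of 18044 genes its means are those of the pair HCN3-positive 1 and HCN3-negative 2, called group A here after the table's own column, and of the other libraries, HCN3-positive 2 and HCN3-negative 1 and 3, called group B (relative tolerance 0.01). The header does not say which group the authors took as HCN3+. By these groups Hcn3 was at 0 and 32.2 in group A, and at 44.5, 103 and 41.9 in group B. In 3 of the 4 Hcn genes each library of group B lay above both of group A. Counts were low, and 0 of the 4 passed in the authors' deposited table (adjusted p 0.604 for Hcn3). Whether sample titles or column names were exchanged could not be settled from the files, so each value by label holds only as far as the titles do. Both comparisons are given below, by label with limma (a linear model on log2(normalized count + 1) over all genes) and by group A and B from the authors' own columns.

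Transcripts of all 10 genes were abundant in the libraries of group B and low in those of group A, across the labels. In all 10 the lowest library of group B lay above the highest of group A, against 26.1% of the 16579 genes whose mean reached 5. At the level of the authors' deposited table, 9 of the 10 were higher in group B at an adjusted p under 0.05, against 6.09% of all genes, and 0 were higher in group A, against 8.1%. The authors' fold, group B over group A, ran from 3.74 for Fbln2 to 15.6 for Lox, with a median log2 fold of 3.37 beside 0.08 over all 18044 genes. By label 0 of the 10 passed, as described further below. In bulk RNA, fewer cells of a type and less RNA per cell cannot be told apart. Between 37 and 15050 reads stood behind each value of a member, so counting error was small beside the spread between libraries.

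**Figure D1:**
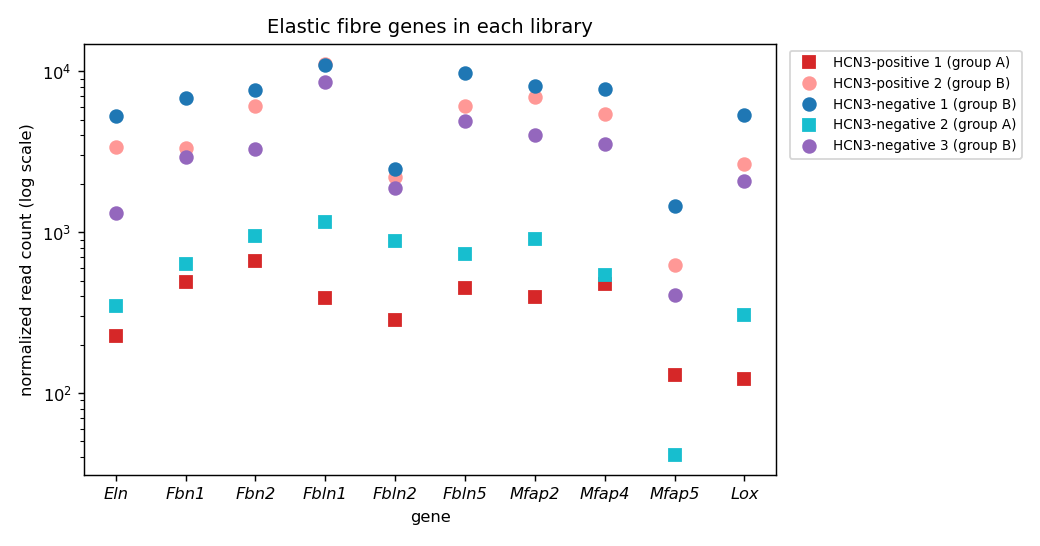
Normalized read count (vertical axis, log scale) of the 10 elastic fibre genes (horizontal axis), with 1 symbol for each library. Squares are the libraries of group A and circles those of group B; reds are labelled HCN3-positive and the other colours HCN3-negative. In each gene both squares lie below all 3 circles, and each label has libraries at both levels.

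Eln (chromosome 5, 134702593 to 134747323, minus strand, mm10) encodes tropoelastin, the elastic core of the fibre. Its normalized count was 227 in HCN3-positive 1 and 3385 in HCN3-positive 2, and 5307, 347 and 1320 in HCN3-negative 1, 2 and 3. Each label thus held a low and a high library, and the labelled groups overlapped. The authors' deposited table gave an 11.6-fold higher mean in group B, with an adjusted p of 0.0393. Within group B Eln differed more between libraries than any other member: HCN3-negative 1 was 4.02 times HCN3-negative 3.

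The fibulins are calcium-binding glycoproteins that bridge elastin, microfibrils and basement membranes. Fbln1 (chromosome 15, 85205949 to 85286535), found in elastic fibres and basement membranes, stood at 389 and 11164 in HCN3-positive 1 and 2, and 10943, 1153 and 8617 in HCN3-negative 1, 2 and 3. It was the one member whose highest library was HCN3-positive 2, although HCN3-negative 1 came within a ratio of 0.980. The authors' deposited table gave Fbln1 a fold of 13.3 and, at 7.82e-15, the smallest adjusted p of the 10. Fbln5 (chromosome 12, 101746565 to 101819055, minus strand), which brings tropoelastin to the microfibril and to the cell surface, had 448 and 6084 in HCN3-positive 1 and 2, and 9722, 729 and 4924 in HCN3-negative 1, 2 and 3. Its fold in the authors' deposited table was 11.7, with an adjusted p of 4.30e-05. Fbln5 thus repeated the order of libraries seen for Eln, with a narrower gap between HCN3-negative 1 and 3 (1.97 times).

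Fbln2 (chromosome 6, 91212455 to 91272540), which binds elastin and fibrillin, differed least between the groups. Its normalized counts were 286 and 2194 in HCN3-positive 1 and 2, and 2468, 879 and 1879 in HCN3-negative 1, 2 and 3. The 3 libraries of group B lay close together, and HCN3-negative 2 was 3.07 times HCN3-positive 1, the widest gap in that direction of any member within group A. The authors' deposited table gave a fold of 3.74 and an adjusted p of 0.000661. Without HCN3-negative 2 the ratio of means was 7.62, and without HCN3-positive 1 it was 2.48, so the size of the Fbln2 difference rested on those 2 libraries.

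Mfap2 and Mfap5 encode the small microfibril-associated glycoproteins MAGP-1 and MAGP-2, which bind fibrillin. Mfap2 (chromosome 4, 141010418 to 141015984) stood at 393 and 6954 in HCN3-positive 1 and 2, and 8062, 907 and 4043 in HCN3-negative 1, 2 and 3. Its fold in the authors' deposited table was 9.77, with an adjusted p of 1.64e-05. Mfap5 (chromosome 6, 122505845 to 122529290) was the scarcest member, at 129.7 and 627 in HCN3-positive 1 and 2, and 1461, 41.1 and 409 in HCN3-negative 1, 2 and 3. Here the order within group A was turned: Mfap5 was lowest in HCN3-negative 2, at 0.317 times HCN3-positive 1, whereas the other 9 members were lowest in HCN3-positive 1. Mfap5 was also the member that did not pass in the authors' deposited table, with a fold of 9.75 and an adjusted p of 0.0965. That fold was 20.3 without HCN3-positive 1, 6.42 without HCN3-negative 2 and 6.07 without HCN3-negative 1. Mfap4 (chromosome 11, 61485431 to 61488900), a fibrinogen-related protein that binds elastin and fibrillin, had 479 and 5460.4 in HCN3-positive 1 and 2, and 7808, 543 and 3547 in HCN3-negative 1, 2 and 3. The libraries of group A were nearly level for Mfap4, and the authors' deposited table gave a fold of 10.97 with an adjusted p of 0.000142. An exon of Mapk7 on the other strand covers 89 bases of the annotated Mfap4 exons, and the library chemistry is not stated to keep strand.

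Promoter stretches are shown for the members for which one could be read. RefSeq's promoter table (GRCm38.p6) holds 5 of the 10, and 3 have a stretch outside annotated exons. Each is given 5′ to 3′ on the strand of the gene, and comes from the 150 bases before RefSeq's most upstream start, less any bases that an annotated exon covers. Capitals mark a GC box (GGGCGG), read on either strand. The other motifs searched on both strands were the TATA box (TATAAA), the AP-1 site (TGANTCA), the TEAD site (CATTCC), a Smad site (CAGACA) and the CArG box bound by serum response factor.
Fbln1, chr15:85205799-85205948, plus strand: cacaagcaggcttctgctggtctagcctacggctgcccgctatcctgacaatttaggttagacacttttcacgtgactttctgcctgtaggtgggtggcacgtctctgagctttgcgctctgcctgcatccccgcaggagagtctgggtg
Fbln5, chr12:101819120-101819269, minus strand: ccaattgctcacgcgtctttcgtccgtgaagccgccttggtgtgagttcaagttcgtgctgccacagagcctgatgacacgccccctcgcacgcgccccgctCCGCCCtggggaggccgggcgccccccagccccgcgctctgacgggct
Mfap2, chr4:141010274-141010417, plus strand: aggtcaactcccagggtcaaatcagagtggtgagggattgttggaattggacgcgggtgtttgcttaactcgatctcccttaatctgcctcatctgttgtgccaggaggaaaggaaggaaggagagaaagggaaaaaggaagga

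The Fbln5 stretch held 1 GC box, on the reverse strand, and the Fbln1 and Mfap2 stretches held none. Of 32851 promoters in that table, 28.6% hold a GC box in the 150 bases before the start. The other motifs were in none of the 3 stretches, against 7.57% of promoters for TATAAA, 4.24% for the AP-1 site, 7.59% for the TEAD site, 10.3% for the Smad site and 0.916% for the CArG box. No match says only that these letters are not in these windows. With only 3 stretches and motifs this uncommon, the search cannot show whether the members share a promoter site, and that was not tested.

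Fibrillins form the microfibril backbone, and Fbn2 is known for its use in the embryo, while Fbn1 is the main fibrillin of later life. Fbn1 (chromosome 2, 125300594 to 125507993, minus strand) stood at 492 and 3331 in HCN3-positive 1 and 2, and 6838, 636 and 2923 in HCN3-negative 1, 2 and 3. Fbn2 (chromosome 18, 58008623 to 58210487, minus strand) had 664 and 6059, and 7647, 946 and 3309, in the same order. Both stood highest in HCN3-negative 1 and lowest in HCN3-positive 1. The authors' deposited table gave Fbn1 a fold of 7.74 with an adjusted p of 0.0212. It gave Fbn2 a fold of 7.05 with an adjusted p of 0.00195. Per kilobase of the principal GENCODE transcript, the level of Fbn2 was 1.21 to 1.97 times that of Fbn1 in the 5 libraries, with a mean ratio of 1.498 ± 0.314 (SD, n = 5). Fbn2 was above Fbn1 in each library, in both groups and under both labels. Exons of Gm9913 on the other strand, a gene without a value here, cover 2442 bases (20.1%) of the annotated Fbn1 exons. Whether this lowered the Fbn1 counts was not tested.

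Lox (chromosome 18, 52516067 to 52529867, minus strand) oxidizes lysines of tropoelastin and collagen so that the chains cross-link. It had normalized counts of 123 and 2635 in HCN3-positive 1 and 2, and 5326, 306 and 2078 in HCN3-negative 1, 2 and 3. The authors' deposited table gave a fold of 15.6, the largest among the members, with an adjusted p of 0.00558. Even the nearest libraries of the groups, HCN3-negative 3 and HCN3-negative 2, differed 6.78-fold. Without HCN3-negative 2 the ratio of means rose to 27.3. It likewise rose to 26.3 for Fbln1 and 16.2 for Mfap2 without that library.

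Among its relatives Lox took a varying share. Of the summed level per kilobase of the 5 lysyl oxidase genes, Lox made up 17.1% and 32.8% in HCN3-positive 1 and 2, and 43.5%, 19.7% and 15.7% in HCN3-negative 1, 2 and 3. Loxl2 made up 27.2% and 27.7% in HCN3-positive 2 and HCN3-negative 1 but 59.7% in HCN3-negative 3, where its normalized count was 8867 against 2451 and 3796. Loxl3 held 46.1% in HCN3-negative 2. The lysyl oxidase with the highest level per kilobase was therefore Lox in HCN3-positive 2 and HCN3-negative 1, Loxl2 in HCN3-positive 1 and HCN3-negative 3, and Loxl3 in HCN3-negative 2.

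Levels among the members were compared per kilobase of transcript. The mean over the 5 libraries was highest for Mfap2, at 3795 normalized counts per kilobase, followed by Mfap4 (2072), Fbln1 (1764), Fbln5 (752), Eln (549.5), Lox (442), Mfap5 (354), Fbn2 (337), Fbln2 (322) and Fbn1 (238). The first gene of this order had the shortest transcript (Mfap2, 1.07 kb) and the last the longest (Fbn1, 11.97 kb). Coverage along transcripts was not examined, so an effect of length on the order was not tested. Mfap2 was above Mfap4, Fbln1 above Fbln5, and Fbln5 above Eln in 5 of 5 libraries each. Mfap4 was above Fbln1, Eln above Lox, Lox above Mfap5, and Fbln2 above Fbn1 in 4 of 5. Mfap4 and Fbln1 were level in HCN3-negative 2 (315.16 and 315.14 per kilobase), and Fbln1 was higher in HCN3-negative 3 (2355 against 2060). Their order was therefore not settled. Nor was that of Mfap5, Fbn2 and Fbln2, since Mfap5 was above Fbn2 in 2 and Fbn2 above Fbln2 in 3 of the libraries. The paralogues Mfap2 and Mfap5 stood furthest apart, with Mfap2 4.26 to 31.0 times higher per kilobase.

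The order of the libraries was shared by most members. In 8 of the 10, HCN3-negative 1 was highest, then came HCN3-positive 2, then HCN3-negative 3, with HCN3-negative 2 and at last HCN3-positive 1 below them. HCN3-negative 1 was highest in 9, HCN3-positive 2 was above HCN3-negative 3 in 10, and HCN3-negative 2 was above HCN3-positive 1 in 9. The members differed in how steep the fall within group B was. From HCN3-negative 1 to HCN3-negative 3 it was 4.02-fold for Eln, 3.57-fold for Mfap5 and 2.56-fold for Lox, but 1.31-fold for Fbln2 and 1.27-fold for Fbln1.

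By label, no elastic fibre gene differed beyond the spread between libraries. With limma 0 of 10 passed at an adjusted p under 0.05, where 0% of the 16579 genes passed (157 genes, and 0 members, had an unadjusted p under 0.05). Count models on the recovered reads called 0 of 10 as well: edgeR called 0% of all genes and DESeq2 0.0603%. Labelled groups did not overlap in 0 of the 10, against 10.8% of all genes. The log2 fold change, HCN3-positive over HCN3-negative, was below 0 in 10 of 10, with a median of -0.88 beside -0.03 over all genes, but each 95% interval held 0. Eln, for example, had group means of 1806 ± 2233 (SD, n = 2) and 2325 ± 2628 (SD, n = 3). Its log2 fold change was -0.62, with a 95% interval from -4.61 to 3.38 and an adjusted limma p of 1.00. In limma the values nearest to and furthest from 0 were -0.03 for Mfap5 and -1.40 for Lox. The count models ordered the members differently: edgeR and DESeq2 gave -0.71 and -0.75 for Mfap5, and -0.21 and -0.26 for Fbln1, which was -1.19 in limma. The intervals were wide, reaching down to a log2 fold change of -5.79 (Lox) and up to 4.15 (Mfap5). The comparison therefore does not show that the labelled groups were alike.

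The direction by label rested on single libraries. Without HCN3-positive 1 all 10 log2 fold changes were above 0, from 0.46 for Fbln2 to 1.33 for Eln. Without HCN3-positive 2 all 10 were below 0, down to -3.61 for Fbln1. Without HCN3-negative 1, 4 of the 10 (Eln, Fbn2, Mfap4 and Mfap5) were above 0. With a term for groups A and B in the model, so that labels were compared within them, 9 of 10 were below 0 and 0 passed in limma. The log2 fold change was then -0.06 (SE 0.62) for Eln, -0.76 (SE 0.49) for Lox and 0.53 (SE 0.76) for Mfap5.

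**Figure D2:**
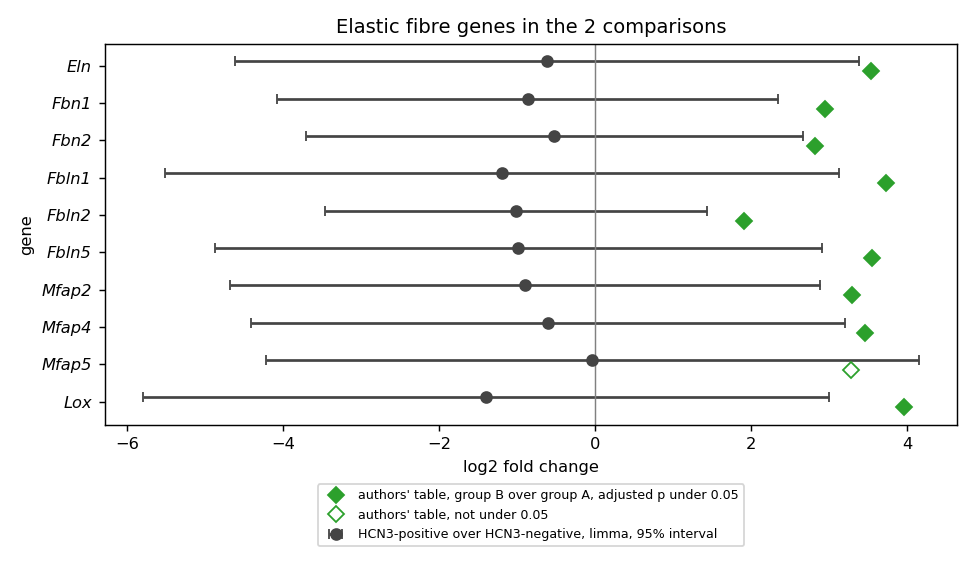
Log2 fold change (horizontal axis) of each elastic fibre gene (vertical axis). Circles with 95% intervals are the limma comparison by label, all spanning 0; diamonds are the authors' deposited values for group B over group A, from 1.90 for Fbln2 to 3.96 for Lox, filled where their adjusted p was under 0.05 (9 of 10).

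Of 18 further genes for proteins of microfibrils and elastic fibres, 9 were higher in group B and 1 in group A in the authors' deposited table, and 8 did not pass. Over all genes, 6.09% were higher in group B and 8.1% in group A. In 13 of the 18 each library of group B lay above both of group A, against 26.1% of all genes. Among the higher ones were Ltbp4 (13.5-fold) and Ltbp1 (7.38-fold), which hold latent TGF-beta on microfibrils. Efemp2 (fibulin-4), which is needed for elastin cross-linking, was 4.86-fold higher. The small proteoglycan genes Dcn and Bgn were 15.9-fold and 11.4-fold higher. Emilin1, an elastin-associated glycoprotein, was 3.91-fold higher, and Fbln7, Ltbp3 and the ADAMTS-like gene Thsd4 were 7.09-fold, 3.34-fold and 2.44-fold higher. Emilin2, a relative of Emilin1, was the gene higher in group A, with normalized counts of 12833 and 6680.0 in HCN3-positive 1 and HCN3-negative 2 and from 110.5 to 165 in the libraries of group B. The authors' deposited table gave Emilin2 an adjusted p of 1.11e-08, and its mean was 72.9-fold higher in group A. Fibronectin (Fn1), the most abundant gene of the list and an early scaffold for fibrillin, had 19242 and 10920 in HCN3-positive 1 and HCN3-negative 2, and 15043, 30450 and 9227 in the libraries of group B, with overlapping groups and an adjusted p of 0.964 in the authors' deposited table. By label 0 of the 18 passed in limma, with 8 above and 10 below 0.

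Of 7 cross-linking genes other than Lox, 4 were higher in group B and 0 in group A in the authors' deposited table, against 6.09% and 8.1% of all genes. Loxl1, the lysyl oxidase tied to elastic fibre upkeep, was 10.6-fold higher (adjusted p 3.64e-08). Bmp1, the protease that activates pro-lysyl oxidase, was 7.32-fold higher (1.85e-09), and Loxl3 was 3.32-fold higher (0.00685). Loxl4 had normalized counts of 2.82 and 3.33 in group A, from 2 and 3 reads, and 192 to 324 in group B. Loxl2 did not pass, with a 13.99-fold higher mean in group B and an adjusted p of 0.0674. Atp7a, the copper transporter that supplies lysyl oxidases, had 5606 and 4999 in group A and 2718, 2778 and 4874 in group B, and it did not pass in the authors' deposited table (adjusted p 0.348). By label 0 of the 7 passed in limma, with 1 above and 6 below 0.

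Of 11 genes listed as proteases able to cleave elastin, or their relatives, 10 are in the table. In the authors' deposited table, 2 of the 10 were higher in group B, where 6.09% of all genes were, and 2 were higher in group A, where 8.1% were. Mmp2 and its activator Mmp14 were 5.53-fold and 3.74-fold higher in group B. Ctss (cathepsin S), a lysosomal protease of macrophages and other antigen-presenting cells, had 54922 and 45199.9 in HCN3-positive 1 and HCN3-negative 2 and 55.2 to 84.6 in the libraries of group B. Elane (neutrophil elastase) had 169 and 49.9 in group A, and 0, 1 and 0 reads in HCN3-positive 2 and HCN3-negative 1 and 3. Mmp9 had 4570 and 1226 in group A against 86.8 to 273 in group B, without passing (adjusted p 0.0590). Mmp12, macrophage elastase, had at most 24.4 in any library. Ctsl, from 7874 to 17504, overlapped between the groups. Ctsk, another cathepsin, had 36.6 and 37.7 in group A and 139.5 to 217 in group B, and its adjusted p in the authors' deposited table was 0.113. Metalloproteases and cathepsins thus each had genes with a higher mean on either side. Of those that passed, the metalloproteases Mmp2 and Mmp14 were higher in group B and the cathepsin Ctss in group A. By label 0 of the 10 passed in limma, with 4 above and 6 below 0.

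**Figure D3:**
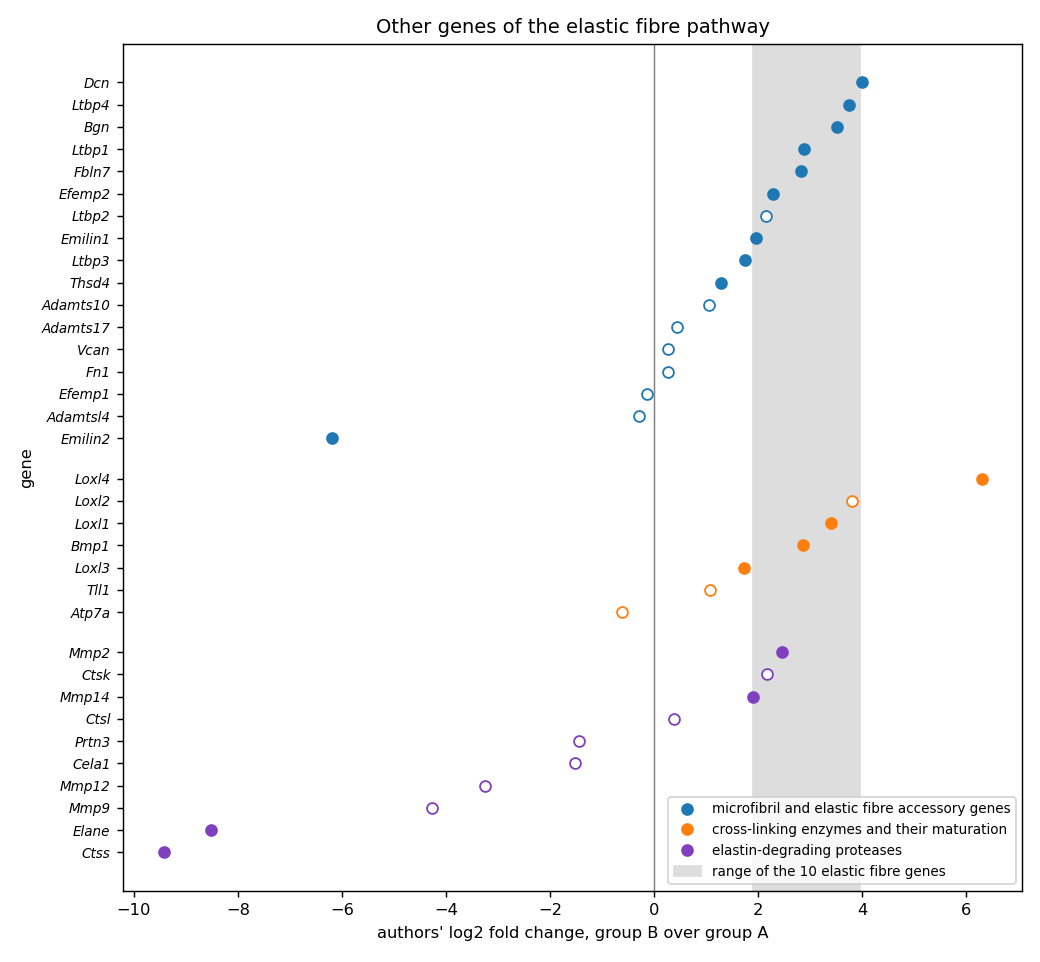
The authors' log2 fold change, group B over group A (horizontal axis), of the other pathway genes (vertical axis), coloured by list and filled where the authors' adjusted p was under 0.05. The grey band is the range of the 10 elastic fibre genes (1.90 to 3.96); Emilin2, Ctss and Elane lie far to its left, and Adamtsl2, with 0 reads in both libraries of group A, has no finite fold and is not drawn.

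Markers of several cell types, not only fibroblasts and smooth muscle, moved with the elastic fibre genes. Each library of group B lay above both of group A in 5 of 5 endothelial markers. The same held in 0 of 6 kidney tubule markers and 0 of 6 urothelial markers, and in 26.1% of all genes. In the authors' deposited table only 1 of the 5 endothelial markers passed as higher in group B, against 6.09% of all genes. Of the kidney tubule and urothelial markers, 0 passed. Summed normalized counts of 6 fibroblast markers were 10877 and 9690 in group A (HCN3-positive 1, HCN3-negative 2) and 101566, 191451 and 82598 in group B (HCN3-positive 2, HCN3-negative 1 and 3). In all 6, led by Col3a1 and Col1a2, each library of group B lay above both of group A, against 26.1% of all genes. Of these, 5 passed as higher in group B in the authors' deposited table, against 6.09% of all genes. The 8 smooth muscle markers summed to 5433 and 3347 in group A and 92517, 127840 and 19991 in group B. In 8 of 8, led by Acta2 and Myh11, each library of group B lay above both of group A, against the same 26.1%. The 11 leukocyte markers went the other way: in 11 of 11 both libraries of group A lay above all of group B, against 23.5% of all genes. They had sums of 375482 and 521869 in group A and 1386, 967 and 2703 in group B. Csf1r, the receptor of macrophage growth factors, was at 92160 and 139878 in group A and 422 to 546 in group B, and C1qb was at 55388 and 85484 against 2.67 to 38.1. Fcgr1 had 0 reads in HCN3-negative 1 and 3, and no fibroblast or smooth muscle marker was at 0 in any library. How far the makeup of the cells accounts for the elastic fibre levels was not tested.

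Within group B several marker lists were lower in HCN3-negative 3 than in HCN3-negative 1. Urothelial markers, led by Upk3a and Upk1b, were lower by a ratio of 19.5 to 38.4. The 3 mesothelial markers, led by Msln and Upk3b, were lower by a ratio of 1.37 to 19.5 (median 19.0). Their counts were low, with a sum of 52.1 in HCN3-negative 3. Smooth muscle markers were lower by a ratio of 2.79 to 11.4 (median 6.30). Fibroblast markers were lower by a ratio of 1.82 to 4.06 (median 2.68), and the elastic fibre genes by 1.27 to 4.02 (median 2.26). Eln, at 4.02, lay within both the smooth muscle and the fibroblast range, while Fbln1 and Fbln2 lay below both. HCN3-negative 3 also had the highest sum of endothelial markers such as Kdr and Tek, 65984 against 4602 to 32050 elsewhere. The podocyte marker Podxl was at 132347 there, against 14858 and 17103 in the other libraries of group B and 3355 and 1324 in group A. The part of these cell types in the elastic fibre levels was not tested.

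**Figure D4:**
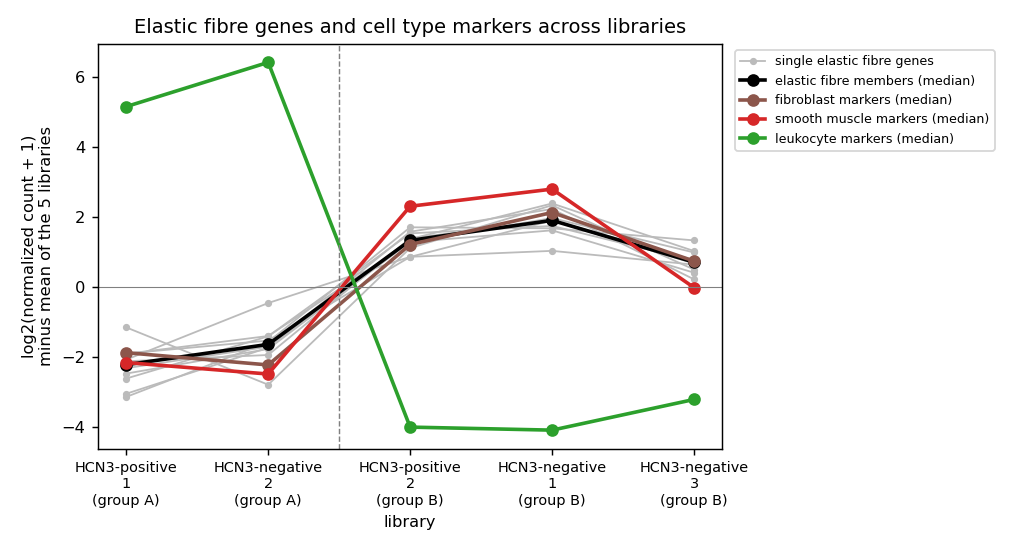
Log2(normalized count + 1) minus the mean of the 5 libraries (vertical axis) in each library (horizontal axis), for single elastic fibre genes in grey and for list medians in colour; the dashed line divides groups A and B. The elastic fibre median ran from -2.22 in HCN3-positive 1 to 1.90 in HCN3-negative 1, while the leukocyte median was 5.15 and 6.41 in group A and from -4.08 to -3.21 in group B.

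The genes whose pattern over the 5 libraries was closest to that of Eln were found by the root mean square difference of centred log2(normalized count + 1), among 12303 other genes with a mean of at least 100. They were Apcdd1 (0.16), Ptx3 (0.17), Alx1 (0.20), the muscle intermediate filament gene Des (0.21) and the muscle tropomyosin gene Tpm2 (0.21). Des, one of the smooth muscle markers, had normalized counts of 103 and 1646 in HCN3-positive 1 and 2, and 2484, 172 and 890 in HCN3-negative 1, 2 and 3. The nearest member was Mfap4, at rank 19 (0.33), and the furthest was Fbln2, at rank 370 (0.86). With 5 libraries that share the division into groups A and B, many genes come close, and the measure is a description.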

How the data were processed

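Per the labels' protocols, the sorted cells' RNA came from a Qiagen kit, the cDNA from a Clontech kit and the sequencing libraries from Nextera XT. The submitters' processing notes name TopHat2 2.0.11, HTSeq 0.6.1p2, DESeq 1.18.0 and mm10; which gene annotation was counted is not stated in them. The signal columns of the deposited table are gene counts divided by 1 size factor per library, per the file headers. The authors also deposited a fold as a ratio of group means, its log2, a p-value and an adjusted p-value. Its 3 summary rows (reads in no gene 8.58% to 14.0%, not aligned uniquely 13.5% to 18.7%, ambiguous 0.792% to 2.32%) were left out.

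Whole reads were recovered as multiples of the lowest nonzero value in a library's column: 100% of nonzero values came out whole (tolerance 0.01). No libraries were duplicates (chi-square per degree of freedom 91.6 to 692). The main test by label was limma 3.58.1 with a mean-variance trend (R 4.3.3), run on log2(normalized count + 1), for the 16579 genes whose mean reached 5, adjusted by Benjamini-Hochberg at 0.05; such fold changes understate the change of low genes. edgeR 4.0.16, DESeq2 1.42.0 and voom on recovered reads, another pseudocount, no filter, TMM scaling, left-out libraries, a replicate block and a term for groups A and B were alternatives. The script was tested on simulated data. Groups A and B were fitted in no test of their own: their folds and adjusted p are the authors'. Coordinates and transcript lengths (APPRIS principal transcript) come from GENCODE M21 on GRCm38, the assembly of mm10.

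Members and lists were chosen with earlier results of these data known. The rule named all members, the 5 genes of each pathway list with the highest mean and any that passed, the 2 highest markers of each cell type list and any at 0, the Hcn genes, and the 5 genes most like Eln. Mmp12, Ctsk and Adamtsl2 were named after their values were seen. Of the other marker lists, urothelium had sums of 247 to 6729, kidney tubule (led by Slc12a1 and Aqp2) 28420 to 78003 and mesothelium 52.1 to 705. Trp63 (urothelium) and Msln had 0 reads in HCN3-negative 2. The podocyte list is given by Podxl alone, and its sum and that of the Hcn genes are not reported here.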

Additional observations from a re-analysis of the deposited data

How the results depend on the processing

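By label, 0 members passed under all alternatives run, and the count of genes passing stayed at 0 except with DESeq2 on the recovered reads, which called 10. With 1 library left out in turn, both counts ran from 0 to 0; where an arm then held 1 library, it was assumed to vary like the other group. The log2 fold changes by label ran, over the left-out libraries, from -2.56 to 1.33 for Eln, -2.24 to 0.51 for Fbn1, -2.12 to 1.07 for Fbn2, -3.61 to 1.23 for Fbln1, -2.48 to 0.46 for Fbln2, -2.86 to 0.90 for Fbln5, -2.97 to 1.17 for Mfap2, -2.36 to 1.14 for Mfap4, -1.44 to 1.12 for Mfap5 and -3.60 to 0.81 for Lox. Mfap5, at -0.03, turned to 0.067 with voom (chosen after seeing the data) and to 0.53 with a term for groups A and B; the cause was not tested.

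The replicate numbers are not stated to pair the libraries, and same-numbered libraries deviated in opposite directions (Pearson's r -0.53 and -0.69 across genes). These were deviations from the mean of each label, so those of the HCN3-positive libraries mirror each other and the values of r are not independent. Each same-numbered pair also joins a library of group A with 1 of group B. The sign of r thus cannot show whether the numbers pair the libraries. With the replicate block over the libraries numbered 1 and 2, 0 genes and 0 members passed and Mfap5 turned to 0.21.

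Between groups A and B, alternatives chosen after seeing the data changed no direction. As the groups did not overlap in any member, leaving out 1 library or a stricter threshold could not have changed it. At a threshold of 0.01 on the authors' adjusted p, 7 of the 10 members passed in place of 9. The members' median log2 ratio was 3.37, from 3.06 to 3.71 with 1 library left out and 3.35 with TMM scaling, where 10 of 10 stayed above 0; the median of log2(mean + 1) differences over the 16579 genes tested was 0.05 with the authors' size factors and 0.03 with TMM. Each member had at least 37 reads in each library.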
